A study of Mus musculus with 8 samples.

Results

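C/EBPα binding was described across a 1.1 Mb interval of mouse chromosome 12 (mm9 chr12:104900000-106000000) that was set to hold the Serpina gene cluster. Every peak of the 8 deposited peak lists whose midpoint lay in this interval was taken. The interval held 693 of 446523 peaks. After overlapping peaks of different libraries had been joined, it held 135 of 113353 sites, whose median width was 228 bp and whose widest spanned 617 bp. No library had more than 1 peak in any of these 135 sites.

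Chromatin of liver was immunoprecipitated with an antibody to C/EBPα and sequenced (ChIP-seq), in 4 groups of 2 libraries, from mice aged 8 to 10 weeks, on chow and fasted for 4 hours. Trib1_LSKO mice were Trib1 flox/flox and received 1.5e11 gc (genome copies) of an adeno-associated virus coding for Cre (AAV_Cre). Their controls, Trib1_WT, were also Trib1 flox/flox and received the same amount of an empty virus (AAV_Null). AAV_Cebpa mice were wild type and received 1e12 gc of a virus coding for C/EBPα, and the AAV_Null group was wild type with 1e12 gc of the empty virus. All vectors were injected intraperitoneally, and the strain label of all 8 libraries was C57B/6. The sources used here name neither the promoters of the vectors nor the number of animals behind each library, so the spread between replicates may be technical. Peak lists hold no transcript levels, so neither the loss of Trib1 nor the tissue label could be checked against marker genes. The lists held 50075 and 53072 peaks in Trib1_LSKO, 53327 and 54691 in Trib1_WT, 59564 and 80394 in AAV_Cebpa, and 46348 and 49052 in AAV_Null. Depth relative to the shallowest library, AAV_Null replicate 1, was estimated from the signal values. It was 1.18 and 1.28 in Trib1_LSKO, 1.14 and 1.93 in Trib1_WT, and 1.85 and 2.27 in AAV_Cebpa, with 1.17 in AAV_Null replicate 2.

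Serpins of clade A are mostly secreted inhibitors of serine proteases, made in large amounts by hepatocytes, and C/EBPα is a basic leucine zipper factor that drives many genes of differentiated hepatocytes. Serpina1 encodes α1-antitrypsin, the inhibitor of neutrophil elastase, which is a single gene in humans and a family of close copies in mice. Serpina3 genes, homologous to human α1-antichymotrypsin, are expanded in mice as well, and Serpina3n is an acute-phase gene of mouse liver. Serpina6 encodes corticosteroid-binding globulin, and Serpina10 the protein Z-dependent protease inhibitor, which acts on coagulation factor Xa.

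In the RefSeq gene table, which is built on GRCm38.p6, chromosome 12 carried 28 Serpina genes, 23 of them protein coding and 5 pseudogenes. All 10 genes the interval was set for were among them. By rising coordinate they ran from Serpina10 and Serpina6 through Serpina1b, Serpina1d, Serpina1a, Serpina1c and Serpina1e to Serpina3k, Serpina3m and Serpina3n. The peak lists use the older build mm9, for which no gene positions were used here, so no site below is assigned to a gene. For the same reason the outer genes, Serpina10 and Serpina6 at one end and Serpina3n at the other, could not be placed against the limits. The lower limit ran through bound sequence. A site 1.6 kb outside it, chr12:104898279-104898524, was called in all 8 libraries at percentiles of 75.7 to 90.4, and another 4.5 kb outside, chr12:104895416-104895657, in all 8 at 72.9 to 95.6. The nearest site inside it, chr12:104901962-104902179, was called in the AAV_Cebpa libraries alone, at 40.1 and 60. A percentile is the rank of a peak's deposited signal in its own list, where 100 is the strongest peak. At the upper limit, the nearest site inside (chr12:105998837-105999101) was called in 2 libraries, at 13.5 in Trib1_WT replicate 2 and 1.4 in AAV_Cebpa replicate 2, and the nearest outside (chr12:106010284-106010517) in both AAV_Cebpa libraries, at 24 and 51.9.

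The Serpina1 copies resemble each other closely at their starts, which bears on every count below, since a read that matches several copies cannot be assigned to one of them. The treatment of such reads by the aligner is not stated in the sources used here. Promoters of 6 of the 10 genes (Serpina1a to Serpina1e and Serpina3n) were in the RefSeq promoter table. Over the 250 bases before the start, the 10 pairs among Serpina1a to Serpina1e were 91.6% to 97% identical in local alignments of 190 to 250 columns. The longest run of identical bases in a pair was between 55 and 115 bases. Against Serpina3n, the longest run shared by any of the 5 was 7 bases. The promoters of Serpina1d, Serpina1e and Serpina1a are shown because they carry the longest shared run and the difference at the C/EBP core. They are on the minus strand of GRCm38.p6, at chr12:103773634-103773883 for Serpina1d, chr12:103956898-103957147 for Serpina1e and chr12:103863620-103863869 for Serpina1a. Capitals mark letters that match the C/EBP core TTGCNNAA or its reverse complement TTNNGCAA, and each sequence is read 5′ to 3′ and ends 1 base before the annotated start:
Serpina1d: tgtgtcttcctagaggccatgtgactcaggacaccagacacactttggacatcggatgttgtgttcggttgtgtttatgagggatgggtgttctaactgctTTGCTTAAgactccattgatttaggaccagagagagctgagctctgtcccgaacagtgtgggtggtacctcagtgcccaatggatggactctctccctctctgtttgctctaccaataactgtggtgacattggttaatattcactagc
Serpina1e: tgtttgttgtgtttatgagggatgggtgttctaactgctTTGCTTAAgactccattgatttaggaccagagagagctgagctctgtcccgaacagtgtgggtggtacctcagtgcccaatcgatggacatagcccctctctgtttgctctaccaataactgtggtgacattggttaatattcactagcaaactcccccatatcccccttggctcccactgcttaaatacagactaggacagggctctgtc
Serpina1a: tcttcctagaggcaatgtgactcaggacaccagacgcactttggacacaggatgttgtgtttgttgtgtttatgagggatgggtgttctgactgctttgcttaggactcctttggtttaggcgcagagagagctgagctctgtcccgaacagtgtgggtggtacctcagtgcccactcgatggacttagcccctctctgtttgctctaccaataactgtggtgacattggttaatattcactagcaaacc
A run of 55 bases, the longest present in all 5 promoters, lay near the start:
shared run: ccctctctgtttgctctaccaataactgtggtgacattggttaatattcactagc

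Serpina1b, Serpina1d and Serpina1e each held the letters TTGCTTAA once, beginning 161, 149 and 211 bases before their starts. Serpina1a and Serpina1c held TTGCTTAG at the matching place, which is no match to the core. Among the other Serpina genes, Serpina5 held TTGCGCAA, which reads the same on both strands, 242 bases before its start. In all, 9 of 20 Serpina promoters in the table (8 of 18 genes) matched the core on either strand, against 9.56% of the 32851 promoters of the table. TTGCTTAA on either strand was in 0.828% of them. The 9 matching Serpina promoters include those of Serpina1b, Serpina1d and Serpina1e, which are near copies. They also count Serpina3f at each of its overlapping promoters, so the 9 are not separate occurrences. The other motif searched, CCAAT on either strand (ATTGG on the opposite one), was in 11 of the 20 Serpina promoters and in 33.8% of all promoters. The 11 include Serpina1a to Serpina1e, whose shared run of 55 bases holds 2 matches, so these 5 are not separate occurrences. Serpina11 is likewise counted at each of its overlapping promoters. These matches are descriptions of sequence and were not set against the peaks.

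The interval was densely bound in every library. It held 85 and 91 peaks in Trib1_LSKO, 86 and 96 in Trib1_WT, 84 and 101 in AAV_Cebpa, and 70 and 80 in AAV_Null. Over joined sites this was 122.7 per Mb, against a mean of 42.7 per Mb over 2411 windows of the same length tiled along the genome, a ratio of 2.87. Of these windows, 31 (1.29%) held as many sites or more, and the highest held 169. In single libraries the ratio of the interval to the mean window was 4.08 and 4.13 in Trib1_LSKO, 3.89 and 4.23 in Trib1_WT, 3.39 and 3.02 in AAV_Cebpa, and 3.64 and 3.93 in AAV_Null. Every library therefore showed the excess, and both AAV_Cebpa ratios lay below the other 6. Neighbouring sites were spaced by a median of 3242 bp, against 6467.5 bp between neighbours in the whole genome.

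**Figure D1:**
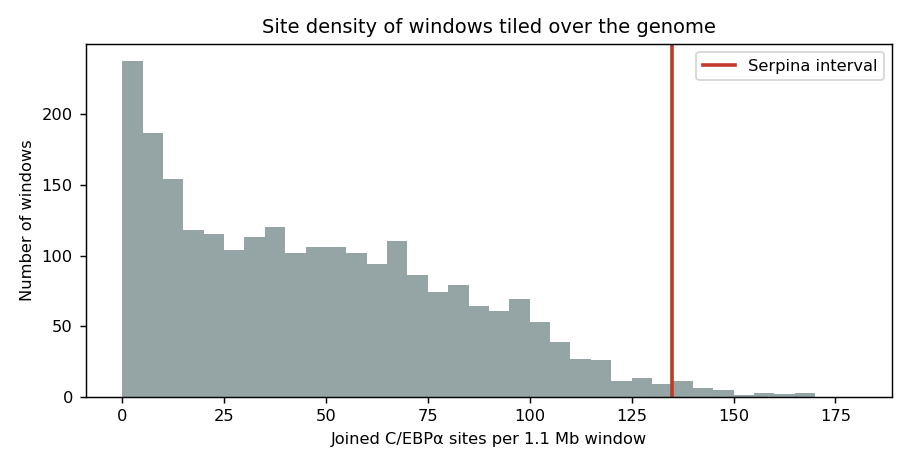
Histogram of the number of joined C/EBPα sites (x axis) in windows of 1.1 Mb tiled over the genome (y axis, number of windows), with the Serpina interval as a vertical line. The interval, with 135 sites, lies in the upper tail, and 31 of 2411 windows held as many or more.

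Sites were spread unevenly along the interval. The first 750 kb held 122 sites, 44 of which were called in all 8 libraries, and the last 350 kb held 13 sites, 1 of them called in all 8. This split was set after the distribution had been seen. The densest bins of 50 kb were those at 700 to 750 kb from the lower limit (chr12:105600000-105650000, 14 sites), 300 to 350 kb (chr12:105200000-105250000, 13 sites) and 200 to 250 kb (chr12:105100000-105150000, 12 sites). The longest stretches without a peak in any library measured 132.4 kb (chr12:105793182-105925532), 83.0 kb (chr12:105709992-105792977) and 52.7 kb (chr12:105925759-105978411). All 3 lay in the last 350 kb. Within the first 750 kb, gaps of 48.8, 36.4 and 35.4 kb were the longest. Whether sequence that cannot be mapped uniquely lies in any of them was not tested.

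**Figure D2:**
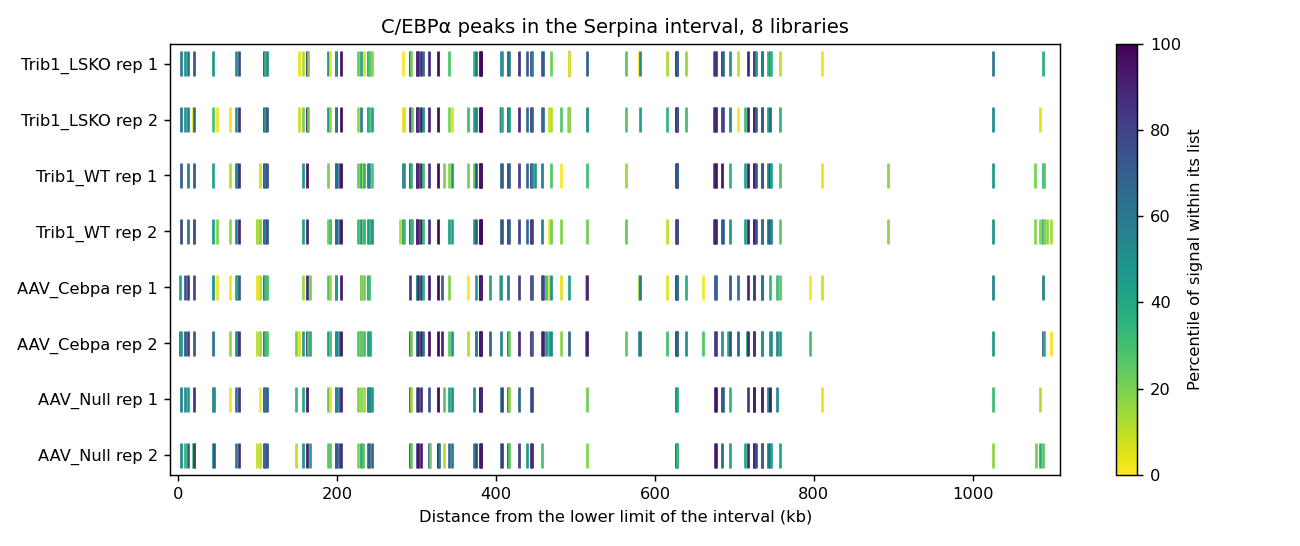
Position of each peak in kb from the lower limit of the interval (x axis) in the 8 libraries (rows), coloured by percentile of signal within its list. Peaks are dense up to 750 kb in all rows and sparse beyond, and a stretch between 450 and 650 kb is nearly empty in the AAV_Null rows.

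A core of 45 sites (33.3%) was called in all 8 libraries, against 21.5% of sites in the whole genome. These common sites were strong, with a median percentile of 80.4 and 83.8 in Trib1_LSKO, 85.2 and 83.0 in Trib1_WT, 75.4 and 79.0 in AAV_Cebpa, and 75.2 and 79.3 in AAV_Null. Over all 24318 common sites of the genome the medians ran from 71.1 to 78.4, and in each library the median of the interval was the higher one. A strong site was usually a common one: 25 of 30 sites with a mean percentile of at least 75 were called in all 8 libraries, against none of the 39 with a mean under 25. In the genome, 81.1% and 1.23% of sites in these classes were called in all 8. The order of the 45 sites was shared to varying degrees, with Spearman's rho of 0.862 to 0.955 within the 4 pairs of replicates and a lowest value of 0.431 over all 28 pairs of libraries.

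The 2 common sites with the highest mean percentile ranked between 1 and 6 among the 45 in each library. At chr12:105279613-105279837, the percentile was 98.4 and 98.8 in Trib1_LSKO, 98.7 and 98.7 in Trib1_WT, 98.1 and 97.5 in AAV_Cebpa, and 97.7 and 98.8 in AAV_Null. At chr12:105227330-105227557 it was 96.5 and 96.6 in Trib1_LSKO, 98.3 and 98.7 in Trib1_WT, 97.7 and 98.5 in AAV_Cebpa, and 98.7 and 99.1 in AAV_Null. Neither site fell below 96.5 in any library. The third, chr12:105281041-105281317, is 1.2 kb beyond the first and reached 91.4 to 98.5. It was followed by chr12:105105214-105105422 (86.2 to 97.4), chr12:105205065-105205290 (87.6 to 95.4) and chr12:105062142-105062359 (87.4 to 94.3). These 6 sites had mean percentiles above 90. The next 4 were chr12:105616932-105617202 (mean 89.3), chr12:105526652-105526876 (89.1), chr12:105624232-105624448 (88.8) and chr12:105201598-105201818 (88.6). At the weak end, 9 common sites had means below 50, the lowest being 32.1 at chr12:105087838-105088100.

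The first comparison asks whether targeting Trib1 altered binding in the cluster. The interval held 88 ± 4.24 peaks per library in Trib1_LSKO against 91 ± 7.07 in Trib1_WT (SD, n = 2 in both groups), a difference of -3 that was within the spread between replicates (exact two-sided permutation p = 0.667, where 2 against 2 libraries cannot go below 0.333). Per 1000 peaks of the list, the interval took 1.71 ± 0.0122 in Trib1_LSKO against 1.68 ± 0.101 in Trib1_WT (exact two-sided permutation p = 1). Of the sites, 66 (48.9%) were called in all 4 libraries, against 30.8% of all sites of the genome. A gained site is one with a peak in both Trib1_LSKO libraries and in neither Trib1_WT library, and a lost site is the opposite. There were 8 gained sites (5.93% of 135), where 3.15% of all sites of the genome were gained, and 6 lost sites (4.44%), where 3.23% were lost. No test of single sites was made, and the exact permutation test used here cannot go below the p given above.

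The strongest gained site of Trib1_LSKO was chr12:105358557-105358773, 458.7 kb from the lower limit. It had percentiles of 72.3 and 66.5 in Trib1_LSKO and no peak in either Trib1_WT list. The site chr12:105391316-105391555 had 51.6 and 47.7, and chr12:105481578-105481809 had 51.6 and 40.7. The site chr12:104908594-104908843 had 47 and 47.7, again with no peak in Trib1_WT. The last one differs from the others in the second experiment, where it was called in both AAV_Cebpa libraries (73.9 and 74.5) and both AAV_Null libraries (50.4 and 34.9). The other 4 gained sites were weaker in Trib1_LSKO, between 2.8 and 30.5. They were chr12:105538593-105538840 (15.7 and 30.5), chr12:105063121-105063356 (20.8 and 22.7), chr12:105392003-105392214 (2.8 and 15.9) and chr12:105052013-105052248 (2.8 and 7.7).

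In the full lists, 5 of the 6 lost sites of Trib1_LSKO were weak. The strongest, chr12:105101706-105101932, had no peak in Trib1_LSKO and percentiles of 59 and 53.2 in Trib1_WT. It was called in 1 of the AAV_Cebpa libraries (48.6 in replicate 2) and in both AAV_Null libraries (58.2 and 71.1). The other 5, chr12:105990273-105990494, chr12:105978412-105978634, chr12:105792978-105793181, chr12:105132362-105132663 and chr12:105002458-105002754, had percentiles of 7.3 to 25.8 in Trib1_WT. Of these 5, the first 3 lie in the sparse last 350 kb. In lists of equal length 8 sites were lost, and they included stronger ones. The share of sites lost over the genome in such lists is not given here. The site chr12:105183288-105183499 had no peak in Trib1_LSKO and percentiles of 60.3 and 41.9 in Trib1_WT, chr12:105244240-105244642 had 38.8 and 30 in Trib1_WT, and chr12:105184456-105184819 had 37 and 18.5. In the full lists, chr12:105183288-105183499 was still called in Trib1_LSKO, at 0.6 and 2.3.

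The second comparison asks how added C/EBPα altered binding. The interval held more peaks in AAV_Cebpa, 92.5 ± 12 against 75 ± 7.07 in AAV_Null (SD, n = 2 each), 1.23 times as many, while the whole lists were 1.47 times as long. Per 1000 peaks its share was lower, at 1.41 and 1.26 in AAV_Cebpa against 1.51 and 1.63 in AAV_Null. The groups did not overlap in either measure. Of 2323 windows of the same length that held a peak, 69.3% had more peaks in both AAV_Cebpa than in both AAV_Null libraries, and 28% took a smaller share of both AAV_Cebpa lists. The exact two-sided permutation test gave p = 0.333 for both, which is its lowest possible value here. The AAV_Cebpa libraries were also the deeper ones. With every list reduced to its 46348 strongest peaks, the difference in peak number was -6.5 in place of 17.5. It was 2 with the strongest 50% of each list, 7.5 with a signal of at least 10, and 9 without AAV_Cebpa replicate 2. The difference per 1000 peaks, -0.237, was -0.578 with the strongest 50% and -0.140 in lists of equal length.

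Gained sites in AAV_Cebpa numbered 22 (16.3% of 135), where 19.5% of all sites were gained, and lost sites 7 (5.19%), where 5.33% were lost. Both shares were near those of the genome. In lists of equal length there were 14 gained and 14 lost sites, for which the share over the genome is not given here. In the full lists, 48 sites (35.6%) were called in all 4 libraries, against 24.4% of all sites.

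The strongest site gained in AAV_Cebpa was again chr12:105358557-105358773, with percentiles of 79.1 and 91.7 in AAV_Cebpa and no peak in AAV_Null. At chr12:105231300-105231513 the percentiles were 70.2 and 89.8, and neither AAV_Null nor any of the 4 libraries of the first experiment had a peak. At chr12:105604863-105605078 they were 61.7 and 70.8, and the site appeared elsewhere in Trib1_LSKO replicate 1 alone, at 9.5. The next were chr12:105481578-105481809 (61 and 61) and chr12:105292297-105292505 (40.1 and 69.3). A sixth gained site, singled out after its values had been seen, was chr12:105200641-105200854. It had 51.4 and 57.3 in AAV_Cebpa and no peak in AAV_Null, yet it was strong in Trib1_LSKO (87.7 and 91.9) and in Trib1_WT (91.2 and 91.1). In lists of equal length it had 37.6 and 26 in AAV_Cebpa, 86.7 and 90.7 in Trib1_LSKO, and 89.9 and 89.5 in Trib1_WT.

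Among the 7 lost sites, the strongest was chr12:105307848-105308063, with no peak in AAV_Cebpa and percentiles of 80.6 and 83.9 in AAV_Null. The same site was kept in Trib1_LSKO at 45.4 and 35.8, against 70 and 73.1 in Trib1_WT. In lists of equal length it had 41.1 and 26.5 in Trib1_LSKO against 65.5 and 68.2 in Trib1_WT. The site chr12:104944436-104944676 had 49 and 72 in AAV_Null and no peak in the other 6 libraries. At chr12:105642278-105642555 the AAV_Null percentiles were 54.5 and 59.5, at chr12:105143055-105143336 they were 44.2 and 68.2, and at chr12:105272018-105272312 they were 49 and 55. All 3 were called in all 4 libraries of the first experiment. The remaining 2, chr12:105234777-105235017 and chr12:105984856-105985075, did not exceed 38.3 in AAV_Null.

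**Figure D3:**
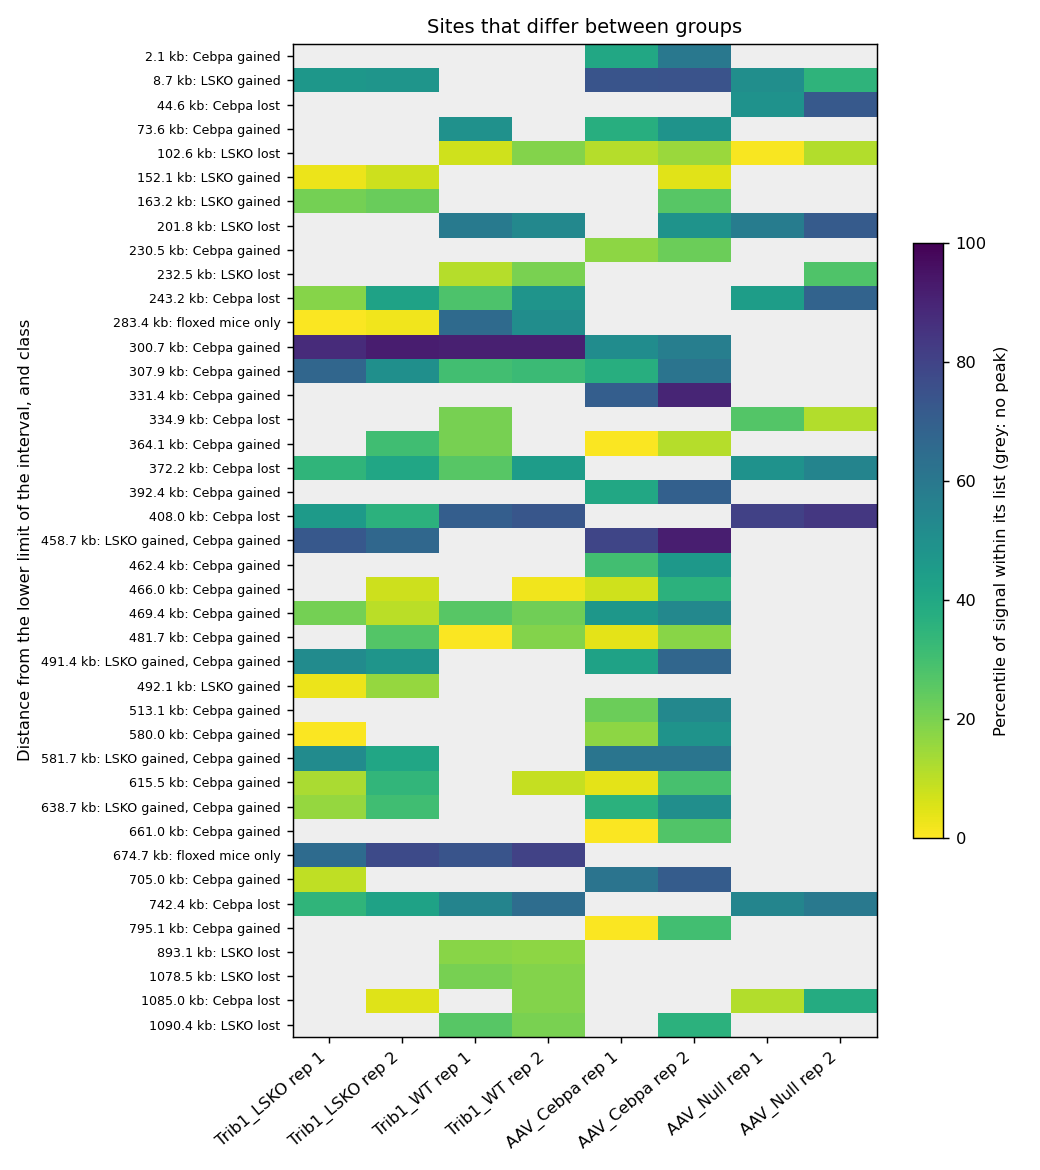
Percentile of signal within its list (colour, grey where no peak was called) of each site gained or lost in either comparison or called in floxed mice alone (rows, ordered by distance in kb from the lower limit) in the 8 libraries (columns). The sites at 458.7, 491.4, 581.7 and 638.7 kb are filled in the Trib1_LSKO and AAV_Cebpa columns and grey in the Trib1_WT and AAV_Null columns.

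In all, 4 sites were gained in both comparisons, which use separate control libraries, and none was lost in both or changed in opposite directions. They were chr12:105358557-105358773, chr12:105391316-105391555, chr12:105481578-105481809 and chr12:105538593-105538840. These 4 sites were 50% of those gained in Trib1_LSKO and 18.2% of those gained in AAV_Cebpa, where the whole genome gave 51.3% and 8.28%. In AAV_Cebpa, chr12:105391316-105391555 had percentiles of 42.5 and 66.9, and chr12:105538593-105538840 had 36 and 50.6.

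All 4 lay between 450 and 650 kb from the lower limit (chr12:105350000-105550000), a stretch chosen after the values had been seen. This stretch of 200 kb held 19 sites, of which 3 were common. It included 5 of the 8 sites gained in Trib1_LSKO and 11 of the 22 gained in AAV_Cebpa, and none lost in either. Trib1_LSKO had 14 and 16 peaks there and Trib1_WT had 8 and 10. AAV_Cebpa had 16 and 17 peaks and AAV_Null had 3 and 5. The groups of each experiment did not overlap there. Of 10786 windows of 200 kb that held a peak, tiled over the genome, 10.4% had more peaks in both Trib1_LSKO than in both Trib1_WT libraries, 47.2% had more in both AAV_Cebpa than in both AAV_Null libraries, and 7.95% had both. In the other 900 kb of the interval the peaks numbered 71 and 75 in Trib1_LSKO against 78 and 86 in Trib1_WT. They numbered 68 and 84 in AAV_Cebpa against 67 and 75 in AAV_Null. The Trib1_LSKO and Trib1_WT counts did not overlap there, while over the whole interval, at 85 and 91 against 86 and 96, they did. The share of genome windows with fewer peaks in both Trib1_LSKO than in both Trib1_WT libraries is not given here. Since the stretch was picked for its values, its contrast with the rest of the interval is a description. AAV_Cebpa has the longer lists and the greater depth, as given above, and their part in the difference was not tested.

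**Figure D4:**
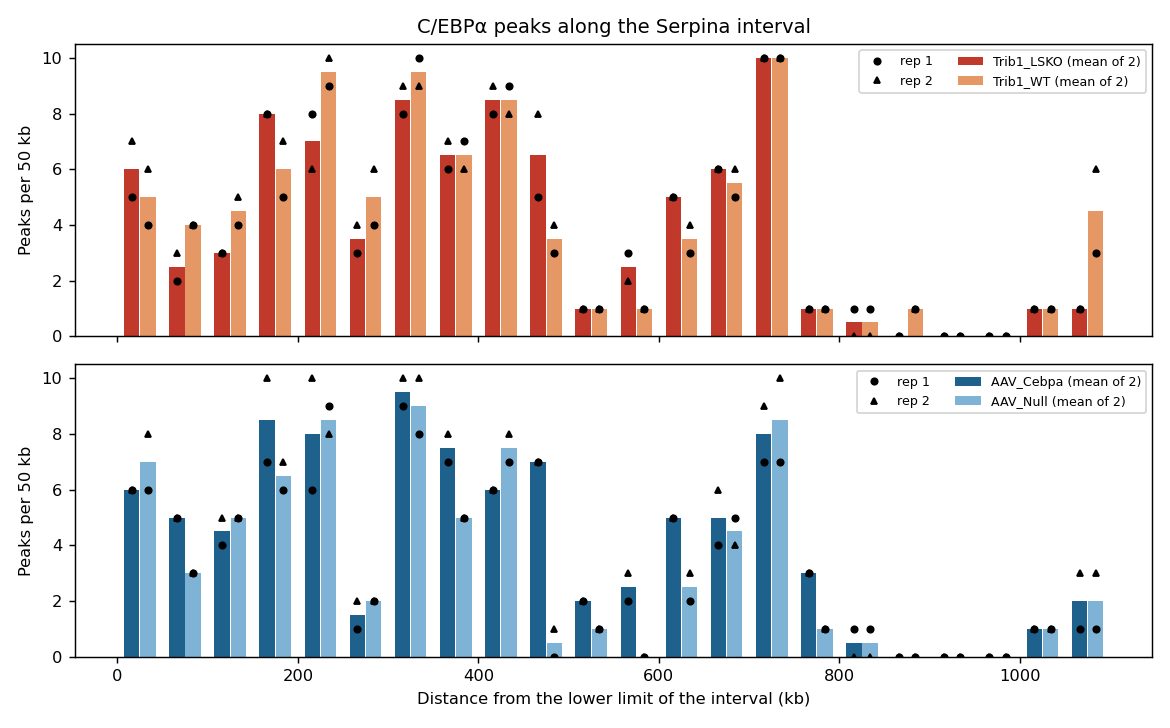
Number of C/EBPα peaks per 50 kb (y axis) by distance in kb from the lower limit (x axis), for Trib1_LSKO and Trib1_WT (upper panel) and AAV_Cebpa and AAV_Null (lower panel). Bars are means of 2 libraries and symbols single libraries. Between 450 and 500 kb both AAV_Cebpa libraries had 7 peaks, and the AAV_Null libraries had 0 and 1.

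Strength at sites bound throughout was compared in lists of equal length, an analysis added after the data had been seen, because ranks in lists of unequal length cannot be set side by side. Of 64 sites called in all 4 libraries of the first experiment, 11 (17.2%) ranked higher in both Trib1_LSKO libraries than in both Trib1_WT libraries, where 22.3% did so in the genome, and 21 (32.8%) ranked lower, where 32.5% did. Of 41 sites called in all 4 libraries of the second, 9 (22.0%) ranked higher in AAV_Cebpa, where 25.6% did in the genome, and 26 (63.4%) ranked lower, where 48.8% did. A list is one scale of rank, so a group of sites that moves up pushes others down.

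The site with the greatest upward difference in both comparisons was chr12:105413920-105414187. In lists of equal length its percentile was 67.7 and 44.4 in Trib1_LSKO against 19.8 and 7.6 in Trib1_WT, and 88.3 and 90.3 in AAV_Cebpa against 21.6 and 14.2 in AAV_Null. Among the 45 common sites it ranked 27 and 37.5 in Trib1_LSKO and 43 and 44.5 in Trib1_WT. It ranked 7 and 6 in AAV_Cebpa and 44 in both AAV_Null libraries. The greatest downward difference in the second comparison was at chr12:105644755-105644986, with 14.2 and 7.2 in AAV_Cebpa against 92.7 and 75.8 in AAV_Null. In the first comparison the same site had 47.7 and 63.3 in Trib1_LSKO against 77.5 and 76.3 in Trib1_WT. Both sites were chosen for these differences, which are therefore descriptions.

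A neighbouring pair of sites 626.8 kb from the lower limit, also chosen after its values had been seen, ranked higher in both comparisons. In lists of equal length, chr12:105527249-105527489 had 97.2 and 97.5 in Trib1_LSKO against 96.9 and 94.7 in Trib1_WT, and 88 and 84.9 in AAV_Cebpa against 40.4 and 41 in AAV_Null. Its neighbour chr12:105526652-105526876 had 95.7 and 97.9 in Trib1_LSKO against 89.7 and 83.3 in Trib1_WT, and 93.8 and 93 in AAV_Cebpa against 71.7 and 78.1 in AAV_Null. The difference of the first site was 1.5 percentile points in the first comparison and 45.8 in the second, and that of its neighbour was 10.3 and 18.5. The site next to the pair, chr12:105528171-105528396, had 65.2 and 70.4 in Trib1_LSKO against 66.3 and 71.5 in Trib1_WT. In the second experiment it had 50.8 and 38.6 in AAV_Cebpa, and 29.2 in AAV_Null replicate 2 alone. No test between the comparisons was made.

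Of 40 sites called in all 8 lists of equal length, 5 ranked higher and 11 lower without overlap in both comparisons, and 1 changed in opposite directions. The exception was chr12:105087838-105088100, with 44.5 and 37 in Trib1_LSKO against 8.5 and 7.6 in Trib1_WT, and 6.5 and 3.4 in AAV_Cebpa against 24.4 and 21.1 in AAV_Null. In the genome, the numbers were 2823 higher in both, 4789 lower in both and 1382 opposite, of 21273 sites.

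**Figure D5:**
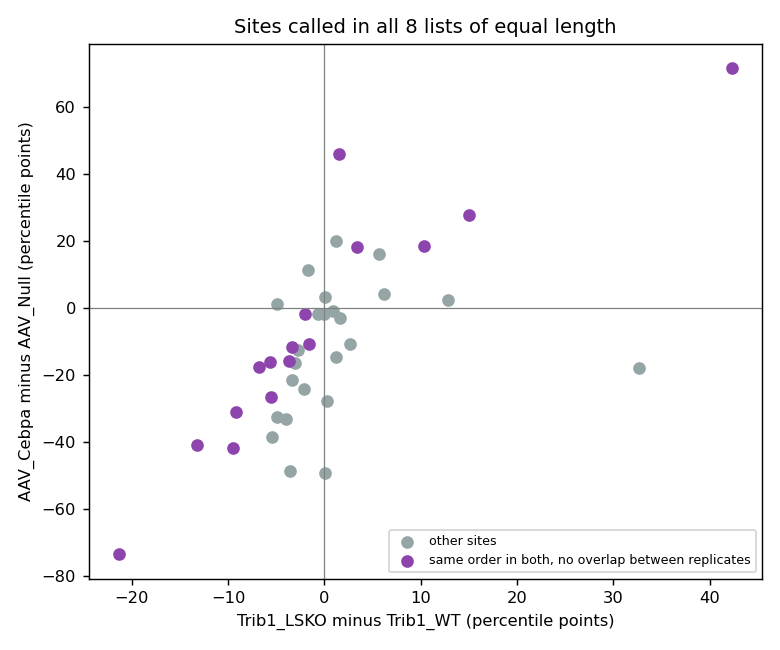
Difference in mean percentile for the 40 sites called in all 8 lists of equal length, with Trib1_LSKO minus Trib1_WT on the x axis and AAV_Cebpa minus AAV_Null on the y axis, in percentile points. Purple points are the 16 sites whose replicates did not overlap in either comparison and moved the same way; the point at 42.3 and 71.4 is chr12:105413920-105414187.

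A pair of sites was called in all 4 floxed libraries and in none of the 4 wild-type libraries, and none showed the reverse pattern. At chr12:105574545-105574789 the percentiles were 65.2 and 77.7 in Trib1_LSKO and 73.9 and 80.4 in Trib1_WT. At chr12:105183288-105183499 they were 0.6 and 2.3 in Trib1_LSKO against 65.5 and 50.8 in Trib1_WT. The floxed allele, the vector dose and the experiment differ together between these libraries and cannot be told apart. In the whole genome, 760 sites (0.670%) were called in floxed mice alone and 270 (0.238%) in wild-type mice alone.

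Agreement between lists, given as the Jaccard index (sites called in both lists divided by sites called in either), was 0.701 ± 0.0143 (SD over the 4 library pairs) between Trib1_LSKO and Trib1_WT in the interval, with 0.778 within Trib1_LSKO and 0.802 within Trib1_WT. Between AAV_Cebpa and AAV_Null it was 0.529 ± 0.0207, with 0.779 within AAV_Cebpa and 0.724 within AAV_Null. Each of these indices was above its counterpart for the whole genome, which was 0.632 and 0.402 between the groups.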

How the data were processed

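The peak lists were deposited by the authors, 1 per library. Each line held a position and a signal value, and every peak was 200 bp wide. Bowtie, HOMER and build mm9 were used, per the submitters' processing notes; their versions, the input library, the calling threshold and the handling of multiply mapped reads are not stated in the sources used here. The deposited signal was used for percentiles within a list, for shortening lists, for the minimum signal of 10 and for relative depth. Relative depth is the inverse of a fitted step, the largest of which nearly all signal values of a list were whole multiples within rounding. A step was taken as 1 tag, which was not checked. Windows of 200 bp around peak midpoints were joined over the 8 libraries where they shared 1 bp or more, and positions are 1-based. Groups were compared by exact permutation over libraries (Python 3.11.15, numpy 2.4.6, pandas 2.3.3). Site counting was tested on lists simulated from peaks over 1500 bp apart, so the test did not cover closer sites. In the interval, 32.8% of neighbouring sites were under 1500 bp apart. Promoters came from RefSeq (GRCm38.p6) and were aligned with Biopython 1.88. The interval, the lists and the tests were chosen with earlier results of these data known. Sites named are the 10 strongest common sites, all sites of a class of 10 or fewer, otherwise its 5 strongest, and the 3 densest bins and longest gaps. Further sites were named for their values. No mm9 sequence or annotation was used. Replicate numbers are not stated to pair libraries.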

Additional observations from a re-analysis of the deposited data

How the results depend on the processing

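Of 168 values recomputed for 16 results, leaving the replicate block aside, 136 kept their direction (differences) or lay close to the value reported (other values), 24 moved, 1 lost its direction and 7 reversed. For counts, close means within 1.5 times. Of the 28 differences that kept their direction, 12 changed in size by over 1.5 times. For the first comparison, the difference in peak number of -3 was 1 with the interval narrowed by 100 kb on both sides and -7.5 with it widened, and ran from -8 to 2 with a library left out (0 without Trib1_LSKO replicate 1, 2 without Trib1_WT replicate 2). The difference per 1000 peaks of 0.022 was -0.0696 with a signal of at least 10, -0.173 in lists of equal length, -0.0449 with the interval widened by 100 kb and 0.0871 with it narrowed, and ran from -0.0493 (without Trib1_WT replicate 1) to 0.0934 with a library left out. For the second, the difference of 17.5 peaks was -6.5 in lists of equal length, 7.5 with a signal of at least 10 and 2 with the strongest 50% of each list. The difference per 1000 peaks of -0.237 was -0.578 with the strongest 50% and -0.140 in lists of equal length. With the strongest 50% of each list, 4 sites were gained in Trib1_LSKO, 12 gained and 11 lost in AAV_Cebpa, 81 sites and 27 common sites were left, their median percentile was 73.6 against 79.9, and the density ratio was 3.76 against 2.87. A signal of at least 10 gave 5 gained sites in Trib1_LSKO, 13 in AAV_Cebpa and a density ratio of 3.34. Lists of equal length gave 14 gained and 14 lost sites in AAV_Cebpa and a density ratio of 3.44. Shares of the genome gained or lost under these settings are not given here. Leaving out a library loosens the rule. Lost sites of Trib1_LSKO then numbered 9 to 14, with 10 and 11 without Trib1_LSKO replicates 1 and 2 and 14 without Trib1_WT replicate 1, and lost sites of AAV_Cebpa 7 to 17, with 15 without AAV_Cebpa replicate 2 and 17 without AAV_Null replicate 1. In lists of equal length, the 11 sites ranked higher in Trib1_LSKO numbered 17 and 18 without Trib1_LSKO replicates 1 and 2 and 20 without Trib1_WT replicate 1, and the 21 ranked lower numbered 35 without Trib1_LSKO replicate 2 and 32 without Trib1_WT replicate 2. The median percentile of common sites ran from 74.4, without AAV_Null replicate 1, to 80.5. With the replicate block the differences are the same by construction, at -3 and 17.5 peaks and at 0.022 and -0.237 per 1000. The sign-flip permutation p for the peak numbers was 0.5, the lowest that 2 pairs allow. Causes of these movements were not tested. The weakest listed peak corresponded to 7 to 12 fitted steps of signal, taken as tags, so binding below that is not seen in these lists.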

Other observations

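Several sites of the interval recurred at like spacings, a pattern noticed in these data. With limits of 800 to 1200 bp and 3500 to 4500 bp, set after the pattern had been noticed, 8 sites had a second site within the first range and another within the second range beyond them. This was 5.93% of sites in the interval, against 0.614% of sites in the genome. Read in the opposite direction, the interval held 1 such set, and 0.591% of sites in the genome began one. The limits were set on these same sites, so both contrasts, with the genome and between directions, are descriptions only. The site density of the interval, 2.87 times that of the mean window, was not taken into account. Of the 8 sets, 5 had spacings of 966 to 1100 bp and 3808 to 4052 bp. They began at chr12:104972553-104972755, chr12:105007850-105008055, chr12:105062142-105062359, chr12:105097886-105098136 and chr12:105139188-105139410. Those 5 first sites were called in all 8 libraries, at mean percentiles of 52.7, 84.3, 91.6, 72.7 and 58.6, and their second sites were weaker, at 45.2, 46.4, 23.1, 57.8 and 44.5. The second sites at 45.2 and 23.1 were each called in 3 libraries, so their means cover fewer lists. In the remaining sets the second site was stronger at chr12:105128091-105128290 (19.1, then 47.5) and chr12:105200641-105200854 (78.4, then 88.6). It was weaker at chr12:105227330-105227557 (98.0, then 60.4 in 1 library). Over all 20 pairs of sites 800 to 1200 bp apart in the interval, the site at the lower coordinate had the higher such mean in 13 and the lower in 7. No gene was placed at these sites, and their relation to the Serpina1 copies was not tested.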
